A study of Mus musculus with 2 samples.

Results

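Interstitial fibroblasts low in Bmp ligands were chosen by their counts of unique molecular identifiers (UMIs, each standing for 1 captured transcript) in 2 single-cell libraries, 1 from normal mouse duodenum and 1 from mouse polyps. Barcodes were kept from 500 UMIs and 250 genes upward where mitochondrial transcripts made up 25% of UMIs or less. A member was a kept barcode with 5 or more UMIs of Dcn, Col1a1, Col1a2 and Col3a1 together, no Ptprc UMI, under 0.5% of its UMIs from the contractile genes Acta2, Tagln, Myh11, Actg2 and Des, and fewer than 2 UMIs of Bmp2, Bmp4, Bmp5, Bmp7, F3, Foxl1 and Pdgfra together. The choice found 118 members among 11712 kept barcodes: 7 of 3252 in the normal library (0.215%, 95% exact binomial interval 0.0866–0.443%) and 111 of 8460 in the polyp library (1.31%, 1.08–1.58%). Since these 17 genes made the choice, their levels in members describe the rule and support nothing further. Fibroblasts that met every limit but the last, with 2 or more UMIs of the Bmp side, numbered 27 and 129 and are called Bmp-ligand fibroblasts below.

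The study compared polyps of 3 Lkb1flox/+;Myh11-Cre/ERT2 mice, which carry 1 floxed allele of Lkb1 (Stk11), with the duodenum, labelled normal, of 3 mice of genotype Lkb1+/+;Myh11-Cre/ERT2, so Cre recombinase was present in both groups. Cre/ERT2 is an inducible recombinase and Myh11 a smooth muscle gene, so the driver is made for contractile cells; whether the allele was recombined in any fibroblast was not measured. The inducing agent, its timing, and the age and sex of the mice were not given in the sources used here. Cells of the 3 mice of a group were pooled in 1 library with 1 barcode suffix and cannot be told apart, and the sample labels name duodenum for both libraries where the series design names polyps. With 1 library a group there was no test between groups: intervals below are 95% intervals for counting error only, and differences between mice, tissue sites and preparations cannot be told apart from the genotype.

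Intestinal fibroblasts are commonly divided by place and product. Cells beneath the epithelium, rich in Pdgfra, make bone morphogenetic proteins (Bmp), which hold back stem cells and favour differentiation. Interstitial fibroblasts lie deeper in the lamina propria and submucosa, build collagen and proteoglycan matrix, and in part make Bmp antagonists and Wnt-supporting factors that sustain crypts, for which they have been called trophic. Adventitial fibroblasts along vessels and in the submucosa are known by Pi16, Cd34 and Dpp4.

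All 5 markers listed for these cells were found in both libraries, on levels given as counts per 1e6 UMIs of the class (CPM). Dcn, which encodes the collagen-binding proteoglycan decorin and which the rule used, stood at 6962 CPM (6635–7300.4) in polyp members and 8780.03 CPM (7985–9633) in normal members, against 10.0 CPM in the kept polyp barcodes that were neither fibroblasts nor contractile, called other polyp barcodes below. Dpt (dermatopontin, a collagen-fibril organiser) was at 1870.3 CPM (1703–2049.9) and 412 CPM (255–631), and 2.79 CPM in the other polyp barcodes. Mgp (matrix Gla protein, an inhibitor of calcification) was at 2202 CPM (2019.7–2396) and 2180.3 CPM (1794–2626), and 5.01 CPM in the others. Sfrp1 (a secreted Wnt antagonist) was at 2054 CPM (1879–2242) in polyp members and 157 CPM (67.8–309.6) in normal ones, and 4.36 CPM in the others. Pi16, the adventitial marker, was the exception among the 5: 40 UMIs lay in 12 of 111 polyp members and all 13 normal UMIs in 1 of 7 cells. Most members had no Pi16 UMI at this depth. Dpt, Mgp and Sfrp1, which the rule did not use, stood far lower in the other polyp barcodes than in polyp members. The 5 markers did not set members apart from Bmp-ligand fibroblasts. Summed, they stood at 13252 CPM in polyp members and 8808 CPM in polyp Bmp-ligand fibroblasts. In normal cells the sums were 11785 CPM in members and 14863 CPM in Bmp-ligand fibroblasts. Dcn, a gene of the rule, supplied 6962 CPM of the polyp member sum and 8780.03 CPM of the normal member sum. Over 4 normal members that remain when 3 barcodes with UMIs of other cell types (described below) are left out, Dcn was at 11714 CPM (10065–13556), Dpt at 1106 CPM (644–1771), Mgp at 1692 CPM (1105–2479) and Sfrp1 at 456 CPM (183–939). The polyp over normal ratio of Dpt was 4.53 over all 7 and 1.69 over those 4.

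The markers lie at chromosome 10: 97479609–97518143 (Dcn), chromosome 1: 164796644–164824266 (Dpt), chromosome 6: 136872435–136875823 (Mgp), chromosome 17: 29317680–29330593 (Pi16) and chromosome 8: 23411502–23449632 (Sfrp1) of mouse genome GRCm38 (mm10), all annotated as protein-coding genes. A 3' library reads the end of the transcript, so no exon, splice form or allele was measured.

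Cell by cell, the polyp members varied widely in these genes. Dcn ran from 0 to 111 UMIs with a median of 10, and 109 of 111 members had it. Dpt, Mgp and Sfrp1 each had a median of 3 UMIs, with highest values of 27, 34 and 30, and were seen in 87, 80 and 83 members. Medians were 0 for Cd34 (highest 9), Pi16 (9), Igfbp6 (13), C3 (13) and Grem1 (10), and the largest number of members with any of these 5 was 53, for C3. To set shares side by side at 1 depth, each cell was drawn down to 1000 UMIs, which left out 31 polyp members and 1 normal member. Dpt was then found in 58 of 80 (72.5%, 61.4–81.9%) polyp members and in 4 of 582 (0.687%, 0.188–1.75%) Ptprc-bearing polyp barcodes, which should lack it (median depths before thinning 1573 and 2424 UMIs). Sfrp1 was found in 57 of 80 (71.2%, 60.05–80.8%) members and 6 of 582 (1.03%, 0.379–2.23%) of those immune barcodes, so neither share lay near the background of free RNA.

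**Figure D1:**
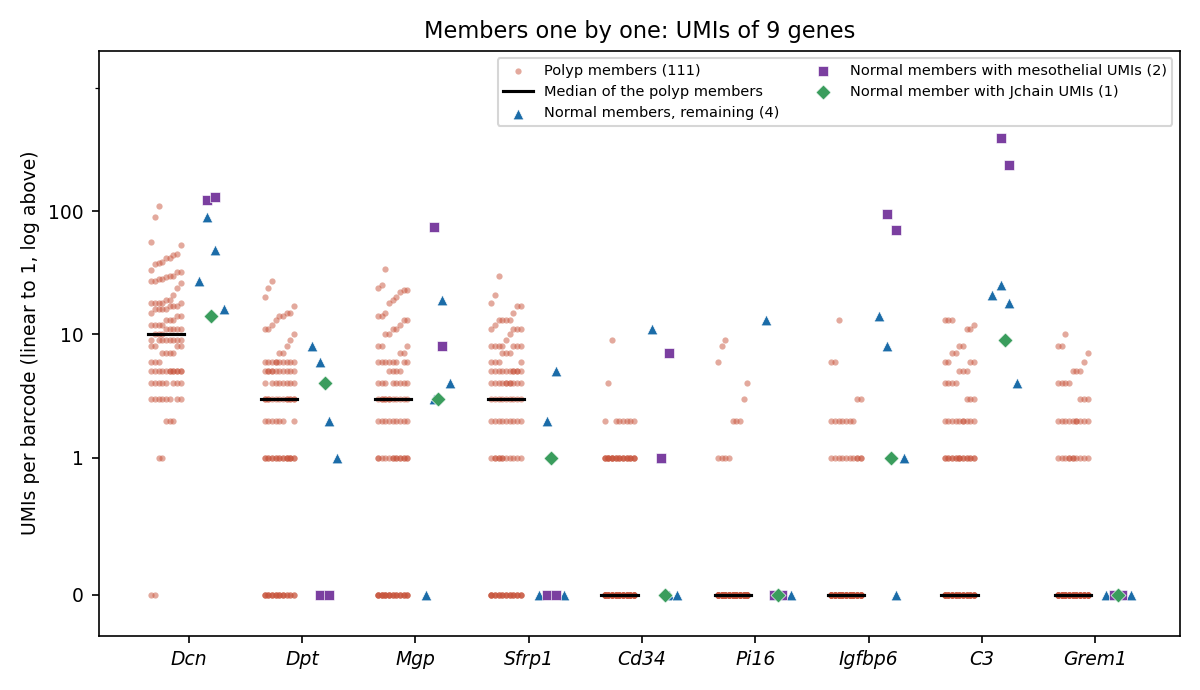
UMIs per barcode (vertical axis, linear to 1 and log above) of 9 genes in each of the 111 polyp members, with their median, and in the 7 normal members, whose symbols separate 2 with mesothelial UMIs, 1 with Jchain UMIs and the remaining 4. Dcn, Dpt, Mgp and Sfrp1 have medians of 10, 3, 3 and 3 in polyp members, and the 2 mesothelial barcodes have 0 UMIs of Dpt and Sfrp1 and 395 and 238 of C3.

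The 7 normal members were not of 1 kind, and this bears on every value of the normal library. The 2 deepest, with 16150 and 14398 UMIs, carried 69 and 79 UMIs of the mesothelial markers Msln, Upk3b, Lrrn4, Wt1 and Muc16, along with 93 and 45 UMIs of the epithelial markers, which include keratins that mesothelium also makes, and had 0 UMIs of Dpt and of Sfrp1. Those 2 barcodes held 30548 of the 50911 UMIs of normal members. Another barcode, of 4997 UMIs, held 518 UMIs of Jchain, a plasma cell transcript. The remaining 4 barcodes had 6580, 5765, 2070 and 951 UMIs, 15366 in all, and 0 UMIs of the mesothelial, smooth muscle, endothelial, glial, T cell, macrophage and plasma cell lists. In these 4, a count of 0 allows up to 195 CPM. No polyp member had 10 or more mesothelial UMIs: Msln, Upk3b, Lrrn4 and Muc16 were at 0 and the list summed to 3 UMIs. Normal values below are over all 7 barcodes unless the remaining 4 are named, a separation chosen after the cells had been seen.

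Among the 111 polyp members, markers of endothelial, glial, T, macrophage, mast, mesothelial and adipose cells were at or near 0. Endothelial markers summed to 3 UMIs in 3 cells with Pecam1, Cdh5, Vwf and Prox1 at 0, glial markers to 3 UMIs with Sox10 and Gfap at 0, T cell markers to 2, macrophage markers to 6 and mast cell markers to 1. Adipocyte markers were at 0. B and plasma cell markers summed to 64 UMIs in 36 cells, at a summed 262 CPM against 3132 CPM in the other polyp barcodes. Acinar markers summed to 71 UMIs in 43 cells (291 against 730.1 CPM in the other polyp barcodes) and erythroid markers to 373 UMIs in 89 cells (1527 against 4011 CPM). Epithelial markers were also common: at least 1 UMI of Epcam, Cdh1, Krt8, Krt18 and Krt19 in 85 of 111 members, with a range of 0 to 147 and a median of 1, 54 cells at 2 or more and 8 at 10 or more, at a summed level of 2288 CPM against 4706 CPM in the other polyp barcodes. At least 8 UMIs of secreted epithelial products were in every polyp member. Tff1, Tff2 and Gkn1 made up 5.15% of polyp member UMIs, 11.1% in the other kept polyp barcodes and 0.0412% in normal members. Spp1 (553 CPM) and Clu (2722 CPM) stood below the level of the other polyp barcodes (840.3 and 5533 CPM), so their UMIs in members cannot be told apart from the RNA of other cells. No barcode sequence of a member occurred in both libraries, although 44 of the deposited barcodes did.

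Rgs5, known from pericytes and vessel walls, was the main marker of a neighbouring cell type in the polyp members. It had 144 UMIs in 31 cells, 45 of them in 1 cell, at 589 CPM (497–694), against 232 CPM in polyp Bmp-ligand fibroblasts and 13.9 CPM in the other barcodes. The ratio of members over Bmp-ligand fibroblasts was 2.54, but 0.892 once barcodes with 2 or more UMIs of epithelial, endothelial, immune, glial or mesothelial markers were removed. Notch3, Kcnj8, Abcc9 and Cspg4, the other pericyte markers, added 11 UMIs in all. Split by Rgs5, Sfrp1 was at 2809 CPM in the 31 cells with Rgs5 and 1733 CPM in the 80 without, and Dpt at 1946 and 1838 CPM. Split by Sfrp1 instead, 77 of the 144 Rgs5 UMIs lay in 3 cells with no Sfrp1 UMI, so Rgs5 was at 394 CPM in the 83 cells with Sfrp1 and 1035 CPM in the 28 without.

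Depth moved with membership. Polyp members had a median of 1573 UMIs (range 527 to 15011) against 3123 in polyp Bmp-ligand fibroblasts, while the 7 normal members had a median of 5765 (951 to 16150) against 5580. Just inside the limit, 61 polyp members had 0 UMIs of the 7 Bmp-side genes and a median depth of 1164, and 50 had 1 UMI and a median depth of 2213. Just outside it, 40 fibroblasts had 2 UMIs and a median depth of 2690. Sfrp1 levels on the 2 sides of the limit were 1979.9 CPM with 1 UMI and 2662 CPM with 2, and Dpt levels were 1959 and 1796 CPM. At the other limit, 9 polyp members had exactly 5 fibroblast UMIs, with Dpt at 539 CPM, and 9 barcodes just outside had 4, with Dpt at 0. When every fibroblast was drawn down to 1000 UMIs, 70 of 127 polyp Bmp-ligand fibroblasts (55.1%) and 24 of 26 normal ones (92.3%) fell under the limit of 2. Low in Bmp ligands thus describes a count at the depth reached, and how many members would pass the limit at greater depth was not tested. Members made up 111 of 240 polyp fibroblasts (46.3%) and 7 of 34 normal ones (20.6%), and with all drawn to 1000 UMIs the shares under the limit were 72.5% and 93.8%, so the order of the libraries turned round with depth.

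**Figure D2:**
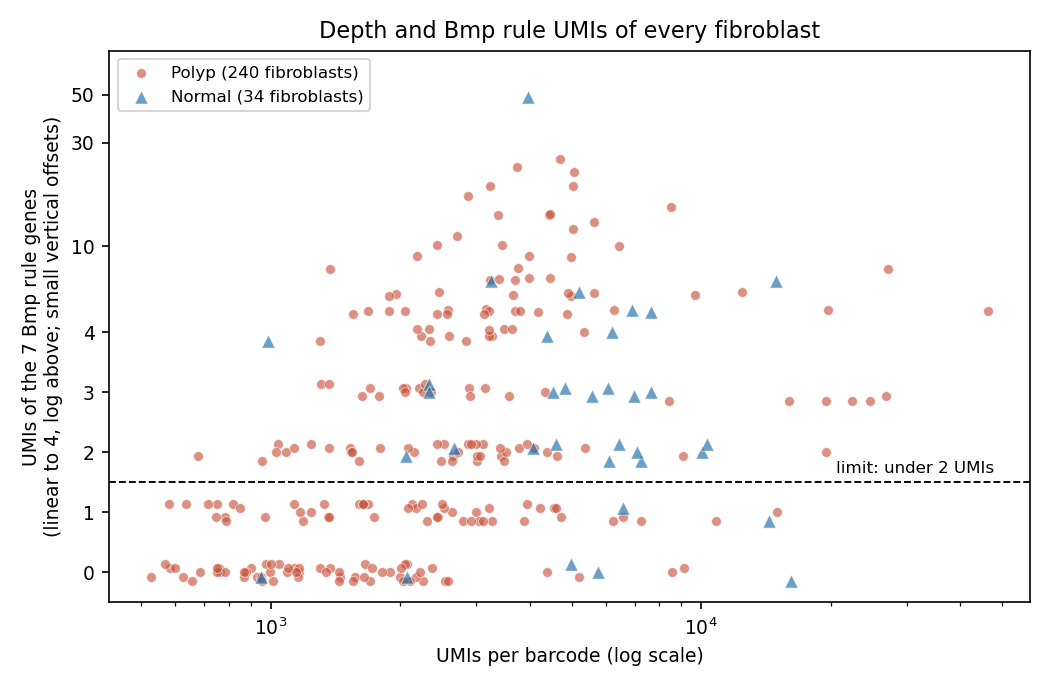
Each point is a fibroblast, with its UMIs on a log axis and its UMIs of the 7 Bmp-side genes (linear to 4, log above) for 240 polyp and 34 normal barcodes, and a dashed line at the limit of 2. Polyp barcodes with 0 such UMIs crowd towards the left, at a median of 1164 UMIs, and those with 2 at a median of 2690.

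The next comparison asks what the members hold beyond the genes of the rule. Polyp members and polyp Bmp-ligand fibroblasts come from 1 library and 1 preparation, and across 2210 genes with at least 50 UMIs over both classes, 45 were at least 2-fold higher in members (2.04%) and 58 at least 2-fold lower (2.62%), with a median log2 ratio of 0.00. These shares are the background for the counts below. The comparison is a description, since the classes were separated by the rule, and depth differs between them.

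Of the fibrillar collagens, none of 5 measured genes differed by 2-fold between members and Bmp-ligand fibroblasts, with a median log2 ratio of 0.02; 3 of the 5 were genes of the rule. Col5a1, a regulator of fibril width, stood at 196 CPM (145–260.5) in polyp members and 249 CPM in Bmp-ligand fibroblasts, and Col5a2 at 315 CPM (249–394) and 229 CPM. Normal members had 7 and 2 UMIs of these. Among the network and associated collagens, 1 of 10 was at least 2-fold higher in members and none lower. That gene was Col8a1, a short-chain network collagen, at 180.1 CPM (131–242) against 52.0 CPM, a ratio of 3.46 (2.15–5.64), and 2.76 without the cell that held most of it. Col14a1, which sits on fibril surfaces, was at 291 CPM (227–367) against 187 CPM. The 3 collagen VI chains, which form beaded filaments around cells, did not share a direction: Col6a3 was at 348 against 193 CPM, but 31 of its 85 UMIs came from 1 cell and the ratio without it was 1.18, while Col6a1 (483 against 622 CPM) and Col6a2 (348 against 465 CPM) were lower in members. In normal members Col6a1 (373 against 919 CPM) and Col6a2 (255 against 486 CPM) lay on the same side over all 7, but over the remaining 4 Col6a2 was the higher, at 716 CPM, and Col6a1 was at 586 CPM.

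The small leucine-rich proteoglycans, which coat collagen fibrils, had a median log2 ratio of 0.48 over 7 measured genes, with none at 2-fold higher and 1 at 2-fold lower. Dcn, a gene of the rule, was among the 7. Lum (lumican) was in 76 polyp members at 941 CPM (824–1071) against 531 CPM, and Bgn (biglycan) in 81 at 1494 CPM (1344–1655) against 989 CPM. Aspn (asporin) was at 356 against 255 CPM. The gene that went the other way was Ogn (osteoglycin), at 151 CPM (107–209) against 409 CPM, a ratio of 0.370 (0.255–0.524). In normal members Ogn was at 491 against 809 CPM, also lower, and Lum (177 against 783 CPM) and Bgn (255 against 1055 CPM) were lower too, opposite to the polyp. With only the remaining 4 normal members Lum stood at 456, Bgn at 846 and Ogn at 976 CPM, so Ogn was then above the normal Bmp-ligand fibroblasts.

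Elastic fibre and microfibril genes held 3 of 10 genes at least 2-fold higher in polyp members and none lower. They were Mfap5 (a microfibril protein), Fbn1 (fibrillin, the microfibril backbone) and Fbln2 (fibulin, which binds both). Mfap5 had 125 UMIs, 512 CPM (426–609.5) against 109 CPM, and a ratio of 4.70 (3.47–6.42); 63 of its UMIs came from 1 cell, without which the ratio was 2.39. Without their highest cells, the ratios of Fbn1 and Fbln2 were 1.59 and 1.78. Mfap4, by contrast, was spread over 64 cells at 716 CPM (614–831) against 429 CPM. Fbln1 was in 79 members at 1019 CPM (896–1154) against 887 CPM, and Efemp1 was lower in members (225 against 364 CPM).

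Of 16 measured matricellular and adhesive genes, 2 were at least 2-fold higher in polyp members and none lower. Tnxb, a tenascin of loose connective tissue, was in 46 cells at 352 CPM (282–435) against 153 CPM. Thbs4 was the other, but 45 of its 53 UMIs came from 1 of 3 cells and its ratio without that cell was 1.73. Thbs1, an activator of latent TGF-beta, stood at 900.4 CPM (785–1028) against 463 CPM. Postn (periostin), which marks subepithelial and activated fibroblasts, was lower in members at 217 CPM (162–284) against 411 CPM, and had 0 UMIs in normal members against 181 CPM in normal Bmp-ligand fibroblasts, where all 28 UMIs lay in 1 of 27 cells. Basement membrane genes (none of 5 past 2-fold) had a median log2 ratio of -0.34. Of the matrix enzymes and inhibitors, 1 of 15 was at least 2-fold higher, the metalloprotease inhibitor Timp3 at 442 against 159 CPM, with 38 of 108 UMIs in 1 cell and a ratio of 1.83 without it.

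**Figure D3:**
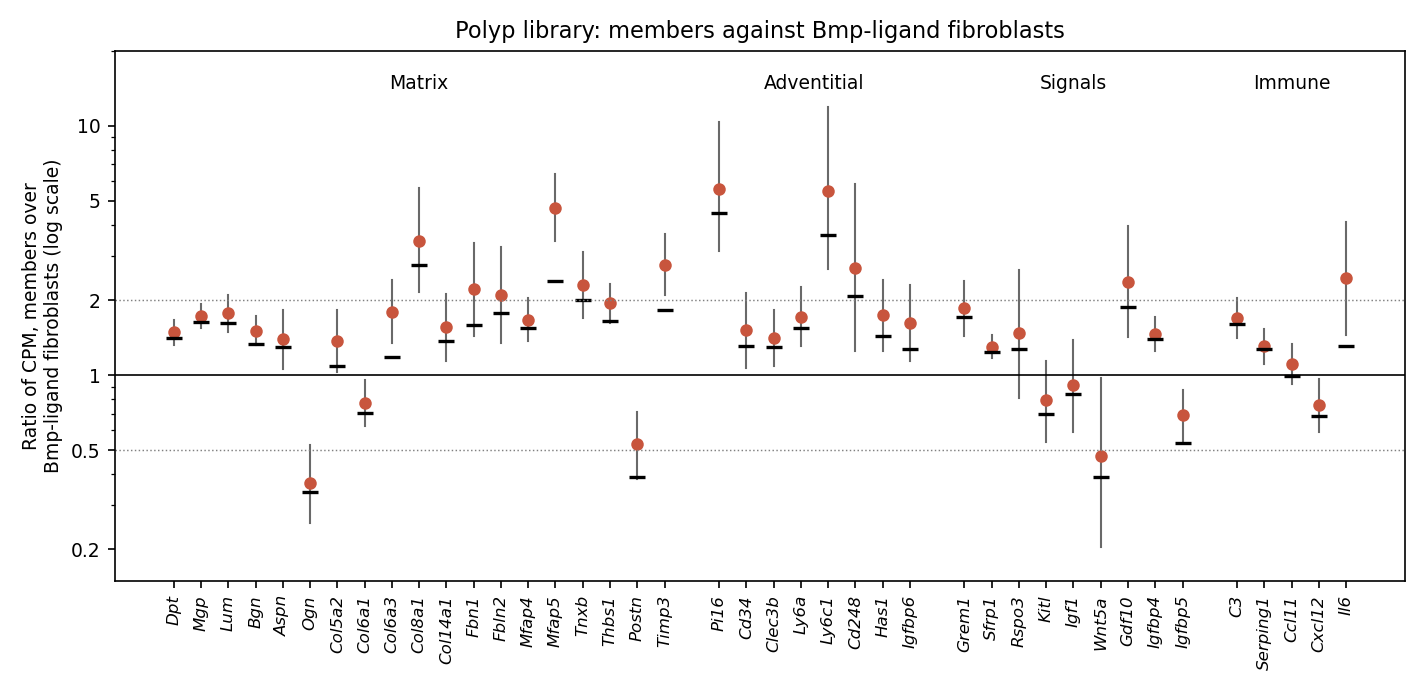
Ratio of CPM in polyp members over polyp Bmp-ligand fibroblasts (log axis) for matrix, adventitial, signal and immune genes, with 95% counting intervals; the short black bar is the ratio without the member that holds most UMIs of the gene, and dotted lines mark 2-fold. Pi16 and Col8a1 stay above 2-fold without their highest cell, Ogn lies below 0.5, and Timp3 and Il6 come under 2-fold.

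The adventitial genes had a median log2 ratio of 0.64 between polyp members and polyp Bmp-ligand fibroblasts over 16 measured genes, with 1 at least 2-fold higher and none lower. That gene was Pi16, a secreted peptidase inhibitor, at 164 CPM (117–223) in members and 29.2 CPM (17.3–46.2) in Bmp-ligand fibroblasts, a ratio of 5.60 (3.14–10.4) and 4.45 without the cell with most of it. Ly6c1 and Cd248 had fewer than 50 UMIs over both classes and were not counted, with ratios of 5.46 (2.66–11.9) and 2.69 (1.24–5.84). Cd34, a surface sialomucin of adventitial and progenitor cells, was in 38 members at 229 CPM (173–298) against 151 CPM, and Ly6a, which encodes the Sca-1 antigen, in 37 at 377 CPM (304–462) against 219 CPM. Dpp4, the dipeptidyl peptidase that usually accompanies Pi16, had 0 UMIs in polyp members, which allows up to 12.3 CPM. Normal members had 10 Dpp4 UMIs, 7 of them in the 2 mesothelial barcodes and 3 in 1 other cell. After drawing to 1000 UMIs, a UMI of Pi16 or Cd34 was in 20 of 80 (25%, 16.0–35.9%) polyp members, 30 of 127 (23.6%, 16.5–32.0%) polyp Bmp-ligand fibroblasts and 9 of 582 (1.55%, 0.709–2.92%) polyp immune barcodes. The first 2 shares overlapped within their intervals, so at equal depth no difference between these classes was detectable. In the normal library the counts were 2 of 6 (33.3%, 4.33–77.7%) members and 10 of 26 (38.5%, 20.2–59.4%) Bmp-ligand fibroblasts, and 0 of 559 immune barcodes.

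Within the polyp members, 12 cells had Pi16 and 99 did not, and several but not all other adventitial transcripts were higher in those 12. Mfap5 stood at 2918 CPM with Pi16 and 146 CPM without, a ratio of 19.97 (13.2–31.0), and 8.17 (4.80–13.9) without its highest cell. Igfbp6 (a binder of insulin-like growth factor 2) was at 931 and 123 CPM, with a ratio of 5.34 (2.72–10.2) without its highest cell, and Ly6a at 1242 and 245 CPM, with 4.55 (2.79–7.31). Ly6c1 and Cd248 (endosialin) went the same way, with ratios of 7.26 (2.44–21.2) and 8.17 (2.18–30.6) on the same footing. Cd34 depended on 1 cell: its ratio was 2.63 (1.38–4.81) over all cells and 1.43 (0.540–3.22) without that cell. Sema3c had a ratio of 1.497 (0.443–4.05), and Gfpt2 one of 0.544 (0.0129–3.54) without its highest cell, so neither interval was clear of 1. The shared interstitial gene Dpt did not follow Pi16 (1676 and 1899.8 CPM). Sfrp1 was lower beside Pi16 (1118 against 2197 CPM), as were Cxcl12 (2 against 86 UMIs) and Rgs5 (1 against 143 UMIs). These are cells of 1 library, so the intervals say nothing about mice, and the split was made on a gene of the marker list.

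**Figure D4:**
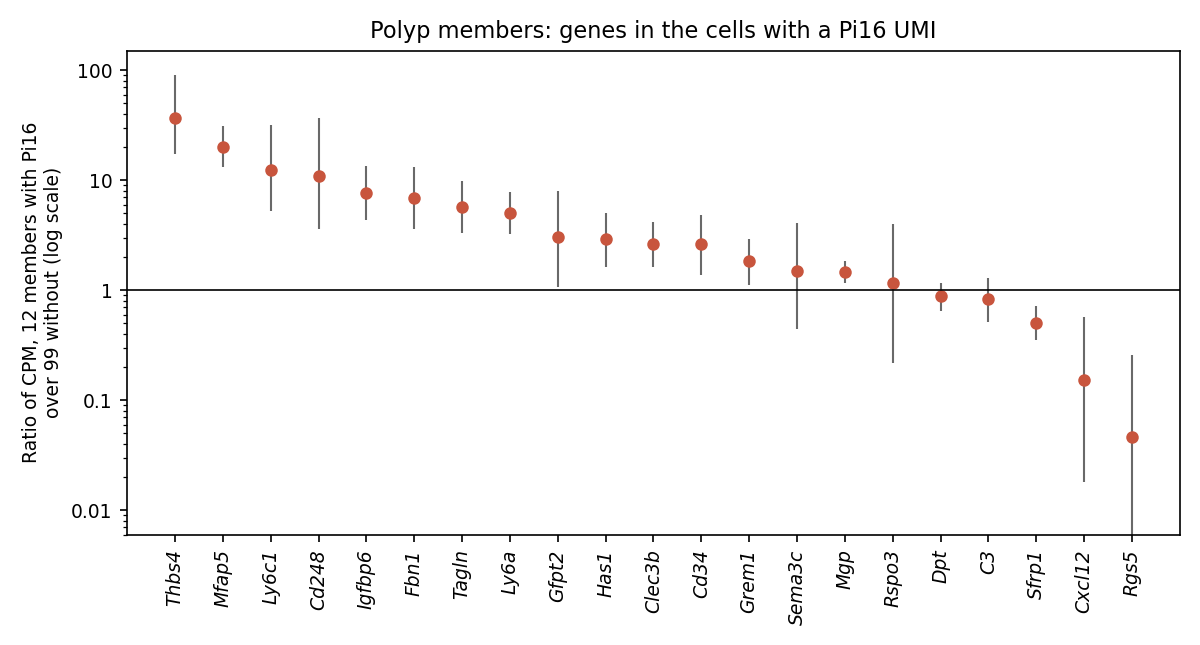
Ratio of CPM in the 12 polyp members with a Pi16 UMI over the 99 without (log axis), with 95% counting intervals. Mfap5, Ly6c1, Cd248, Igfbp6 and Ly6a lie above 1, Dpt has a ratio of 0.882, and Sfrp1, Cxcl12 and Rgs5 lie below 1; the interval of Rgs5 runs past the lower end of the axis.

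One cell supplied much of the Mfap5. It had 6237 UMIs, with 63 of Mfap5, 153 of Crip1, 13 of Igfbp6 and 9 each of Pi16, Cd34, Ly6c1 and Fbn1, beside 53 of Dcn and 1 of Col1a1. In the normal library the cell of 6580 UMIs had 13 UMIs of Pi16, 11 of Cd34, 14 of Igfbp6 and 13 of Mfap5, and also 14 of Ly6a and 3 of Dpp4, the last of which no polyp member had. Each library thus held at least 1 member with Pi16, Cd34, Igfbp6 and Mfap5 together.

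Few trophic factors reached the minimum of 50 UMIs. Of 28 listed genes 9 were measured, none differed by 2-fold, and the median log2 ratio to Bmp-ligand fibroblasts was -0.13. Grem1 (gremlin, which binds and blocks Bmp ligands) had 110 UMIs in 36 polyp members, at 450.2 CPM (370–543) against 242 CPM (205–284) in Bmp-ligand fibroblasts, a ratio of 1.86 (1.44–2.40). Normal members had 0 UMIs, which allows up to 58.9 CPM, and normal Bmp-ligand fibroblasts were at 58.3 CPM. The R-spondins, which raise Wnt signalling in stem cells, were low: Rspo3 had 20 UMIs in 16 polyp members and 2 in normal members. Rspo1 had 1 polyp UMI and 11 normal UMIs, none of the latter in the remaining 4 cells. Growth factors were close between the classes: Igf1 was at 131 against 143 CPM and Kitl (stem cell factor) at 159.6 against 201 CPM.

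The 36 polyp members with Grem1 were set against the 75 without. C3 (the central complement protein) was at 1867 and 341 CPM, a ratio of 5.47 (3.997–7.57), and Sema3c (a secreted guidance protein) had a ratio of 3.47 (1.501–8.48). Mgp, Dpt and Sfrp1 were also higher beside Grem1, with ratios of 1.94 (1.63–2.30), 1.69 (1.40–2.04) and 1.61 (1.34–1.92). The other adventitial genes were mixed. Pi16 at 2.49 (1.28–4.94) and Has1 at 1.86 (1.11–3.12) were higher beside Grem1, and Ly6c1 at 0.0816 (0.00199–0.499) was lower. Cd34 and Clec3b had intervals that included 1, at 1.53 (0.863–2.68) and 1.05 (0.665–1.64), as did those of Igfbp6, Ly6a, Cd248 and Gfpt2.

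Among Wnt modulators 3 genes were measured and 1 was at least 2-fold lower in polyp members, Wnt5a, a non-canonical Wnt ligand of subepithelial cells, at 36.8 CPM (16.8–69.9) against 78.0 CPM. Sfrp1 stood at 2054 CPM (1879–2242) against 1579 CPM (1481–1681). Bmp antagonists and other family members had 1 of 5 measured genes at least 2-fold higher, Gdf10 (a ligand of the wider TGF-beta family), at 131 CPM (89.6–185) against 55.2 CPM; without its highest cell the ratio was 1.87, and in normal cells the order was the reverse (58.9 against 304 CPM, with 0 UMIs in the remaining 4). Fstl1, a secreted follistatin-like protein, was at 368 CPM (296–453) against 219 CPM. Of 7 measured genes for insulin-like growth factor binding none passed 2-fold: Igfbp4 was at 1093 CPM (966–1232) against 747 CPM, Igfbp5 at 368 against 533 CPM. Gas1, a hedgehog co-receptor, was the higher of 2 measured hedgehog genes, at 249.6 CPM (191–321) against 86.1 CPM, a ratio of 2.90 (1.97–4.27). Ptch1, the hedgehog receptor and target, was at 139 against 149 CPM. None of 8 measured TGF-beta pathway genes passed 2-fold.

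Immune-facing genes differed little between the classes. Complement had none of 8 measured genes past 2-fold and a median log2 ratio of 0.41: C3 was in 53 polyp members at 843 CPM (732–966) against 497 CPM and Serping1 (the C1 inhibitor) at 925 CPM (808–1054) against 709.9 CPM. Among chemokines 1 of 9 was at least 2-fold higher, the monocyte attractant Ccl7, at 176 CPM (127–237) against 79.6 CPM, a ratio of 2.21 and of 1.86 without its highest cell. Ccl11 (eotaxin) was in 49 members at 675 against 609 CPM. Cxcl12, which retains lymphocytes and stem cells, was lower at 360.1 CPM (289–444) against 476 CPM. Il6 was the 1 gene of 9 in the IL-6 list past 2-fold, but 15 of its 32 UMIs lay in 1 cell, and without it the ratio was 1.31. Ptgs2, the inducible prostaglandin synthase, was in 25 polyp members at 315 CPM (249–394) against 237 CPM.

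Early-response and heat shock genes, which tissue digestion is known to induce, were abundant in members of both libraries. The list summed to 41605 CPM in polyp members and 38833 CPM in normal members, and 17044 CPM in the other polyp barcodes. Gene by gene, 2 of 23 were at least 2-fold higher in the polyp and 3 lower over 7 normal members, with a median log2 ratio of 0.29; over the remaining 4 they were 10 and 1, with 0.65. None of the 23 genes differed by 2-fold between polyp members and Bmp-ligand fibroblasts, with a median log2 ratio of 0.26. Fos was at 3454 and 3052 CPM, and Egr1 at 3233 and 2552 CPM. Hspa1a and Hspa1b are near-identical copies between which reads can be split, so their values, 3151 and 3442 CPM in polyp members, are uncertain 1 by 1.

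Few genes differed from Bmp-ligand fibroblasts the same way in both libraries. Of 2787 genes, 7 were at least 2-fold higher in members of both (0.251%) and 13 at least 2-fold lower (0.466%). The 7 were Rgs5, Pla2g1b, Rasl11a, Ano1, Rgmb, Pcsk5 and Timp1. Ano1 owed its place to the normal library, with 28 UMIs there and 0 in the remaining 4 cells, and Timp1 had 24 and 0. In the polyp, 9 of 22 Timp1 UMIs lay in 1 cell, and its ratio of 2.31 was 1.41 without that cell. Rgs5, Rasl11a and Pcsk5 had 0 UMIs in normal members and passed only because a count of 0 was set to the floor of 3 UMIs, so nothing about those genes in normal members follows. With all fibroblasts drawn to 1000 UMIs before the limit was applied, 0 genes passed as higher in both. The 13 were Eva1b, Pdgfra, Auts2, Rgs10, Rbpms, Maf, Tmem158, Tmed4, Bmp4, Myh9, Gm26917, Rbp4 and Vma21. Pdgfra and Bmp4 belong to the rule. Rbpms, an RNA-binding protein of contractile cells, was at 65.5 CPM (37.4–106) against 192 CPM in the polyp and 78.6 against 304 CPM in normal cells, with 0 UMIs in the remaining 4. Myh9, the non-muscle myosin heavy chain, was at 90.04 against 187 CPM and 58.9 against 155 CPM.

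Ranked by the interval end nearest 1 in the less extreme library, the genes higher in members of both libraries were Crip1, Hspb1, C3, Gpc3, Timp1, Hspa1b, Gas1, Igfbp6, Nr4a1 and Ifitm3. In the polyp, 153 of 378 Crip1 UMIs lay in 1 cell, and its ratio of 1.98 was 1.21 without that cell. Gpc3 (a cell-surface proteoglycan) was at 115 CPM (76.1–166) against 35.7 CPM in the polyp and 786 against 401 CPM in normal cells, but 130.2 CPM in the remaining 4. Hspb1, a small heat shock protein, was at 4086 CPM over 7 normal members and 260.3 CPM over the remaining 4. Over the remaining 4 normal members, 7 of the 10 had ratios under 1 to the normal Bmp-ligand fibroblasts, of which 3 cells with 10 or more mesothelial UMIs were kept: Hspb1 (0.133), C3 (0.957), Gpc3 (0.324), Gas1 (0.302), Igfbp6 (0.696), Nr4a1 (0.402) and Ifitm3 (0.673). Timp1 had 0 UMIs, and Crip1 at 1.06 (0.781–1.41) and Hspa1b at 1.16 (0.727–1.77) were above 1 with intervals that included it. The genes lower in both, over all 7 normal members, were Rbpms, Postn, Eva1b, Cela1, Fhl2, Adamdec1, Ogn, Col6a1, Col6a2 and S100a11. Over the remaining 4, Ogn at 1.21 (0.656–2.07), Col6a2 at 1.47 (0.706–2.79) and S100a11 at 1.23 (0.741–1.94) lay above a ratio of 1, Rbpms, Postn, Eva1b, Fhl2 and Adamdec1 had 0 UMIs, and Col6a1 at 0.637 (0.285–1.24) and Cela1 at 0.324 (0.0384–1.22) were under 1. Cela1 is a pancreatic acinar product and stood below the other barcodes of its library in members and Bmp-ligand fibroblasts alike (in the polyp 205 and 322 against 641 CPM). Adamdec1, a protease of lamina propria fibroblasts, was at 491 CPM (407–587) against 647 CPM in the polyp, with 0 UMIs in normal members against 375 CPM, from 2 of 27 cells.

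A ranking in the polyp alone was added after the values had been seen. Its higher genes were Thbs4, Clca1, Pla2g1b, Mfap5, Pi16, Ebf1, Cilp, Clps, Rasl11a and Col8a1. Ebf1, a transcription factor of mesenchyme, was in 15 members at 180.1 CPM (131–242) against 34.1 CPM, and Cilp, a cartilage-type matrix protein, in 22 at 319 CPM (252–398) against 79.6 CPM, or 2.88 as a ratio without its highest cell. With fibroblasts drawn to 1000 UMIs first, the ratios of Thbs4, Clca1 and Ebf1 were 0.887, 0.95 and 0.977, so these did not keep their direction. Pla2g1b and Clps are pancreatic products, at 209 and 573 CPM in members, below the 248 and 876 CPM of other polyp barcodes. Among its lower genes, Chil4, Reg1, Reg3g, Dmbt1 and Pigr are epithelial products that were below the other polyp barcodes in members too, and after drawing to 1000 UMIs all 5 were higher in members (5.45, 2.14, 1.22, 6.69 and 5.32). Col4a5, a basement membrane collagen, was lower at 24.6 against 99.1 CPM.

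The last comparison sets polyp members against normal members, the contrast of the study. Of 791 genes with at least 50 UMIs over both, 164 were at least 2-fold higher in the polyp (20.7%) and 74 at least 2-fold lower (9.36%). The median gene itself was 0.21 higher on the log2 scale, and relative to it the split was 133 and 102. Against the remaining 4 normal members the counts were 149 (21.5%) and 65 (9.39%) of 692. Without the barcodes that held 2 or more UMIs of those other cell types, polyp barcodes included, they were 58 and 26. Fewer barcodes leave fewer genes with 50 UMIs, so these counts cannot be set against 164 and 74 as shares. With 111 cells against 7, of which 2 held 30548 of 50911 UMIs, the background is high and a gene past 2-fold is common.

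The 10 genes that led the polyp side by the ranking used for naming were compared with the remaining 4 as well. Sfrp1 was at 2054 CPM (1879–2242) against 157 CPM (67.8–309.6), a ratio of 13.1 (6.58–30.5), and 4.51 (2.17–11.3) over the remaining 4. Mfap4 was at 716 CPM (614–831) against 39.3 CPM (4.76–142), with ratios of 18.2 (4.97–152) and 11.0 (1.95–437). These rest on 2 normal UMIs, 1 of them in the remaining 4. Tnfaip6, a hyaluronan-binding protein of inflamed tissue, was at 458 against 19.6 CPM, from 1 normal UMI, with ratios of 23.3 (4.10–929.9) and 7.04 (1.24–281). Thbs1 was at 900.4 against 98.2 CPM, with ratios of 9.17 (3.87–28.5) and 2.77 (1.17–8.61). All 5 normal Thbs1 UMIs lay in 1 cell, one of the remaining 4, and 36 of 220 polyp UMIs in 1 cell. The other 6 had 0 UMIs in normal members, so their ratios are bounds against 3 UMIs: Rgs5 at least 10.0-fold higher, Adamdec1 at least 8.33-fold, Grem1 at least 7.64-fold, Cxcl12 at least 6.11-fold, and Matn2 and Tnc each at least 4.51-fold. Over the remaining 4 cells, where 0 allows up to 195 CPM, these bounds fell to 3.02, 2.52, 2.31, 1.84 and 1.36. Of 27 normal Bmp-ligand fibroblasts, 13 had Cxcl12 (246 CPM), 9 Mfap4 (317 CPM), 14 Tnfaip6 (421 CPM) and only 2 Adamdec1 (375 CPM). In Bmp-ligand fibroblasts the polyp over normal ratio was 17.9 for Rgs5, 5.77 for Tnc, 4.15 for Grem1 and 3.75 for Sfrp1. It was 1.97 for Matn2, 1.93 for Cxcl12, 1.74 for Thbs1 and 1.72 for Adamdec1. These differences were thus not particular to members. For Mfap4 (1.35, 0.994–1.87) and Tnfaip6 (1.02, 0.777–1.36) the interval included 1.

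**Figure D5:**
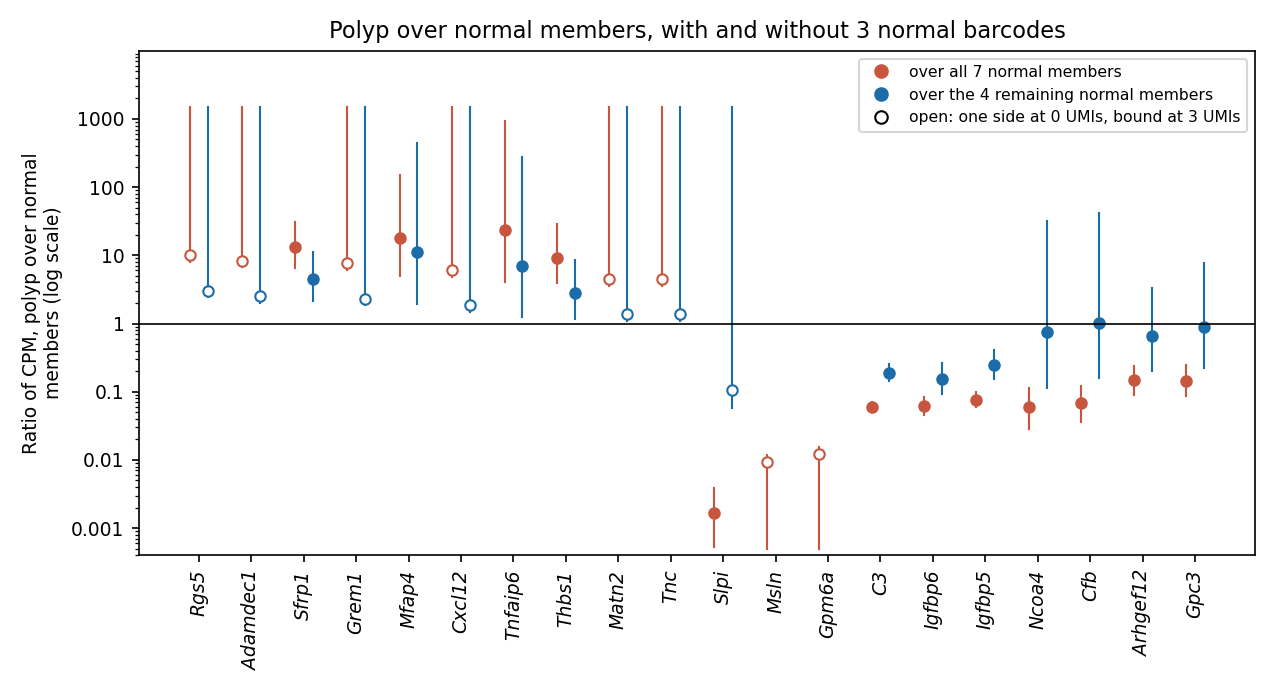
Ratio of CPM in polyp members over normal members (log axis) for the 20 named genes, over all 7 normal members and over the remaining 4, with 95% counting intervals. Open symbols are ratios with 3 UMIs in place of 0 where 1 side had 0 UMIs. Sfrp1 and Mfap4 lie above 1 in both forms, C3, Igfbp6 and Igfbp5 below 1 in both, and Cfb moves from 0.0680 to 1.01.

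Of the 10 genes that led the normal side, 3 kept a lower level in the polyp against the remaining 4 cells with an interval clear of 1. C3 was at 843 CPM (732–966) in the polyp, 13946 CPM over 7 normal members and 4425 CPM (3436–5610.2) over 4, with ratios of 0.0605 (0.0515–0.0707) and 0.191 (0.144–0.254). Igfbp6 had ratios of 0.0617 (0.0450–0.0836) and 0.153 (0.0927–0.261), and Igfbp5 of 0.0769 (0.0597–0.0983) and 0.246 (0.154–0.408). The Igfbp5 value over 4 rested largely on 1 cell. Of its 23 UMIs, 19 lay in the cell of 6580 UMIs, which also held the Pi16, and 4 in the cell of 5765 UMIs. The other 7 did not. Msln, Slpi and Gpm6a had 68, 633 and 51 UMIs in normal members and 0 in the remaining 4. Ncoa4, Cfb, Arhgef12 and Gpc3 had ratios of 0.755 (0.112–32.3), 1.01 (0.156–42.2), 0.650 (0.203–3.32) and 0.880 (0.222–7.63) over the remaining 4. In Bmp-ligand fibroblasts the polyp over normal ratio was 0.108 (0.0938–0.123) for C3 and 0.0658 (0.0513–0.0835) for Igfbp6. For Igfbp5 it was 0.791 (0.633–0.997). The lower C3 and Igfbp6 were thus not particular to members.

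By list, the counts of several groups moved when the 3 normal barcodes were left out. Proteoglycans had 3 of 5 measured genes at least 2-fold higher in the polyp and 1 lower over 7 normal members, and 1 and 1 over the remaining 4. Dcn, a gene of the rule, was among those 5 but not past 2-fold. Matricellular genes had 7 of 12 higher and 0 lower, then 2 and 2. Adventitial genes had 3 of 9 higher and 2 lower, with a median log2 ratio of -0.64, then 1 and 5, with -1.77. Pi16 itself was at 164 CPM in the polyp, 255 CPM over 7 and 846 CPM over 4 normal members, all of it from 1 normal cell. Complement had 2 of 9 higher and 4 lower, then 1 and 1 of 8. Secreted epithelial products were higher for 7 of 7 genes, and for 6 of 7 over the remaining 4, at 53924 CPM in polyp members and 589 CPM in normal members; their part in other polyp values was not tested.

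Positional transcription factors, which record where along the gut a mesenchymal cell arose, were summed over all fibroblasts to gain depth, 859938 polyp and 205388 normal UMIs. Barx1, known from stomach mesenchyme, had 57 UMIs in 38 polyp fibroblasts, 20 of them in members, and 60 more in contractile cells, and 0 in the whole kept normal library; over fibroblasts it was at least 4.54-fold higher. Isl1 had 54 against 1 UMI, a ratio of 12.9 (2.22–519), with 20 UMIs in polyp members. Pitx1 had 37 against 0, at least 2.95-fold higher. Going the other way, Osr1 had 12 against 20 UMIs, a ratio of 0.143 (0.0639–0.308), Hoxa5 7 against 13, a ratio of 0.129 (0.0434–0.347), and Gata6 16 against 23, a ratio of 0.166 (0.0820–0.328). Wt1, also a gene of the mesothelial list, had 5 against 20, a ratio of 0.0597 (0.0175–0.164). The normal fibroblasts summed here include 2 members and 3 Bmp-ligand fibroblasts with 10 or more mesothelial UMIs. Their part in these lower values was not tested. Tcf21, a factor of visceral fibroblasts, had 236 against 22 UMIs, a ratio of 2.56 (1.65–4.17). The labels name duodenum for both libraries, so a difference in site between polyp and normal tissue cannot be told apart from the genotype, and its part in the polyp values was not tested.

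Lkb1 itself (Stk11, the kinase whose floxed allele defines the polyp group) had 14 UMIs in 14 polyp members, 57.3 CPM, against 58.5 CPM in polyp Bmp-ligand fibroblasts, and 3 UMIs in normal members, 58.9 CPM. Counts at the 3' end do not check a deletion, and the driver is not a fibroblast gene. Of 26 listed kinases of this pathway 1 reached 50 UMIs over the polyp classes, so the family was too sparse here to compare.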

How the data were processed

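Duodenum and polyp pieces of 0.5 mm3 were digested in 0.2% collagenase type II at 37 °C for 40 min, strained at 40 µm and run on droplet 3' chemistry, per the labels' protocols. The deposited values are whole UMI counts per gene and barcode; the authors made them with Cell Ranger, version 3.0.0 per the submitters' processing notes and 5.0.0 per the file headers, a difference that was not resolved. No normalization was applied by the authors. The 9950 normal and 14327 polyp barcodes deposited were reduced to 3252 and 8460 by the quality limits. No doublets were removed from the values reported. UMIs were summed over the cells of a class and divided by the class total (CPM), with exact Poisson intervals, exact conditional binomial intervals for ratios and Clopper-Pearson intervals for shares, at 95%, in Python 3.11.15 with scipy 1.17.1. They cover counting error only. Class totals were 244343 UMIs for polyp members and 50911 for normal members. Genes with at least 50 UMIs over the classes compared were counted past 2-fold; 1 library a group allows no test. Where a class had 0 UMIs, 3 were used for the point ratio, which is then not a 95% limit. The procedure was tested on simulated Poisson counts per class. That simulation held no differences between cells, so it says nothing about genes whose UMIs gather in single cells.

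Genes were named by 3 rules: the markers and list members; per direction, the 10 genes of the polyp over normal comparison ranked by the interval end nearest 1, seen in at least 10% of members and no lower than in other barcodes; and, without the last 2 conditions, the 10 genes against Bmp-ligand fibroblasts in both libraries, ranked in the library where that end was nearer 1. The ranking skipped genes of the mitochondrion, ribosome, haemoglobins and antibodies, Xist, Tsix and Y-linked genes, Lars2, and those with provisional names. Members, gene lists and rules were chosen with earlier results of these data known. Positions are from the GENCODE annotation of GRCm38. Alternatives changed the quality limits, the rule, the fold, the gene minimum, scaling, weighting, thinning and doublet removal; removing barcodes with mesothelial or plasma cell UMIs, and leaving out the cell with most UMIs of a gene, were chosen after seeing the data.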

Additional observations from a re-analysis of the deposited data

Results flagged for a closer look

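Barcodes outside the quality limits were not used in any comparison, yet 7 of 5867 in the polyp library (0.119%, 0.0480–0.246%) met the rest of the rule, against 1 of 6698 in the normal library (0.0149%). The normal interval, 0.000378–0.0832%, overlapped that of the polyp. Those 7 had a median of 1620 UMIs, with Dpt at 1405 CPM, Mgp at 1772 CPM and Sfrp1 at 1283 CPM.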

How the results depend on the processing

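No paired analysis was possible because each group is 1 library, and for the same reason no replicate could be left out. The counts of genes that follow are not shares. Except for changes of fold, scaling, weighting or interval, a setting could also change which genes reached the UMI minimum. The 164 genes higher and 74 lower in polyp members became 66 and 41 with members limited to 0 Bmp-side UMIs, 58 and 26 without barcodes holding markers of other cell types, 70 and 35 with fibroblasts thinned to 1000 UMIs, 271 and 134 at 1.5-fold, 95 and 34 at 3-fold, and 412 and 256, or 74 and 37, with a gene minimum of 20 or 100 UMIs. The 7 genes higher than in Bmp-ligand fibroblasts in both libraries became 0 after thinning, 11 relative to the median gene, 52 and 1 at 1.5-fold and 3-fold, 73 and 1 at 20 and 100 UMIs, 1 with intervals clear of 1, and 11 without barcodes with mesothelial or plasma cell UMIs. The 13 lower genes became 39 with 0 Bmp-side UMIs, 24 with at least 10 fibroblast UMIs, 6 without other-cell markers, 43 as a mean over cells, 84 and 4 at 1.5-fold and 3-fold, 36 and 7 at 20 and 100 UMIs, 4 with intervals clear of 1, and 2 without mesothelial or plasma cell barcodes.

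The share of kept polyp barcodes, 1.31%, became 0.721% with 0 Bmp-side UMIs, 0.910% with 10 fibroblast UMIs, 0.578% without other-cell markers and 2.37% after thinning; the normal share, 0.215%, became 1.44% after thinning. The share of polyp fibroblasts, 46.3%, became 38.6% with at least 1000 UMIs, 32.1% with 0 Bmp-side UMIs, 38.7% with 10 fibroblast UMIs, 56.5% without other-cell markers and 72.5% after thinning, and the normal share, 20.6%, became 93.8%. Pi16 or Cd34 in polyp members, 25%, became 45.5% without other-cell markers and 37.8% unthinned, and in normal members 0% with 0 Bmp-side UMIs.

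Crossings of 1 were recorded only for ratios at least 2-fold from 1 in the values reported above. Of those, the ratios to Bmp-ligand fibroblasts that crossed 1 after thinning were Thbs4 (0.887), Clca1 (0.95), Ebf1 (0.977), Chil4 (5.45), Reg1 (2.14), Reg3g (1.22), Dmbt1 (6.69) and Pigr (5.32). Without other-cell markers Chil4 (2.16), Dmbt1 (1.502) and Rgs5 (0.892) crossed, with 0 Bmp-side UMIs Rasl11a (0.718), with 10 fibroblast UMIs Chil4 (2.10), as a mean over cells Reg3g (1.01), and without mesothelial or plasma cell barcodes Slpi (3.92). The polyp over normal ratio of Cfb became 2.40 without other-cell markers and 1.01 without mesothelial or plasma cell barcodes. The cause was not tested. Of 687 recomputed values of 65 gene ratios, 468 stayed within the counting interval, 202 left it and 17 crossed 1 from at least 2-fold. A ratio under 2-fold that crossed 1 would be among the 468 or the 202. Removing high doublet scores took out 85 normal barcodes, none a member, and 573 polyp barcodes, 19 of them members.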
